A study of Homo sapiens with 11 samples.

Results

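The NF-kB genes described here are a named list of 10 human genes. They are the 5 REL-domain subunits NFKB1, NFKB2, REL, RELA and RELB, the 3 IkB inhibitors NFKBIA, NFKBIB and NFKBIE, and the 2 feedback genes TNFAIP3 and BIRC3. They were chosen by name, not by a measured value, out of 61566 genes in the tables, and 10 of the 10 were among the 17039 genes with enough reads to be tested. RNA sequencing was done on SK-MEL-103 cells, an established human melanoma line, after 6 days in tozasertib at 0.5 uM (3 samples, replicates 1, 2 and 4), etoposide at 0.25 uM (4 samples) or DMSO, the solvent alone (4 samples). Medium and compounds were renewed on day 3 in all groups. Tozasertib inhibits the Aurora kinases of mitosis and etoposide traps topoisomerase II on broken DNA, and both were used to bring these tumour cells into senescence, a lasting arrest with a changed secretory output. Nothing in the descriptions says that the samples of a group came from separate cultures, so the p-values below measure only the spread between these samples. All cells are 1 line at 1 time point, and in such bulk samples fewer cells of one kind and less RNA per cell cannot be told apart.

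NF-kB is a family of dimeric transcription factors that IkB proteins hold in the cytoplasm until the IKK kinases mark the IkB for destruction. Freed dimers bind short DNA elements and switch on cytokines, survival genes and their own inhibitors, so NFKBIA and TNFAIP3 act as a negative feedback on the pathway. In senescent cells NF-kB is known as a main driver of the secreted inflammatory factors.

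Sequencing gave 27882689 to 56534763 estimated reads in tozasertib, 28547842 to 40170233 in etoposide and 28863009 to 32957818 in DMSO samples. Mitochondrial genes took 3.79% to 4.77% of reads in tozasertib, 3.45% to 5.29% in etoposide and 2.08% to 3.74% in DMSO samples, and the part of this in the differences below was not tested. Of 8 melanocyte lineage markers 5 were tested, with 3 higher and 2 lower in tozasertib against DMSO, 2 higher and 2 lower in etoposide against DMSO and 3 higher in tozasertib than in etoposide. SOX10 averaged 379 CPM in tozasertib, 323 CPM in etoposide and 514 CPM in DMSO cells (CPM are reads scaled to the size of the library) and was lower in both drugs. PMEL, a pigment gene, averaged 3.85 CPM in tozasertib, 0.404 CPM in etoposide and 0.325 CPM in DMSO cells, and was higher in tozasertib than in DMSO (log2 3.57, edgeR adjusted p = 9.56e-07). S100B and MITF were higher in both drugs and PAX3 lower. The other pigment genes had 0 reads (MLANA), 2 reads (TYR) and 67 reads (DCT) over the 11 samples. Of 10 immune markers 4 were tested. Their summed level was 996 to 1035 CPM in tozasertib, 1095 to 1223 CPM in etoposide and 772 to 1002 CPM in DMSO samples, nearly all of it HLA-DRA. Of the 4 tested, HLA-DRA was higher in both drugs than in DMSO, and CD68 and CD14 were lower in both, CD14 on only 56 reads over the 11 samples. LYZ was lower in tozasertib (log2 -1.17, edgeR adjusted p = 0.0157) and did not pass in etoposide (log2 -0.76, adjusted p = 0.0684). PTPRC, which every leukocyte carries, had 37 reads over the 11 samples. Of 7 fibroblast markers 5 were tested. Their summed level was 136 to 141 CPM in tozasertib, 154 to 172 CPM in etoposide and 52.6 to 60.2 CPM in DMSO samples. LUM (log2 2.14 in tozasertib and 2.20 in etoposide against DMSO) and COL1A1 (log2 2.38 in tozasertib and 3.32 in etoposide) rose, PDGFRB and TWIST2 fell, and DCN and THY1 had 20 and 8 reads in all. Of 6 keratinocyte markers 3 were tested. Their sum was 50.1 to 59.0 CPM in tozasertib, 55.8 to 58.5 CPM in etoposide and 48.1 to 68.1 CPM in DMSO samples. Most of it was KRT10, at 48.1 CPM in tozasertib, 51.6 CPM in etoposide and 50.9 CPM in DMSO cells on average. KRT10 did not pass against DMSO in tozasertib (edgeR adjusted p = 0.514) or etoposide (0.886). KRT17 rose (log2 2.59 in tozasertib and 1.92 in etoposide against DMSO) and KRT14 fell, and KRT5 had 18 reads in all. Of 5 endothelial markers 2 were tested, and these summed to 1.44 CPM or less in every sample. The others, CDH5, KDR and TEK, had 6, 68 and 69 reads in all. The part of these markers in the results below was not tested. The DMSO libraries differed among themselves by gene length: over the tested genes, the deviation of replicate 1 from the DMSO mean fell with effective length (Spearman's rho -0.53, a description across genes) and that of replicate 4 rose with it (0.46), against -0.073 to 0.13 in the 7 samples of the drug groups. DMSO replicates 2 (0.16) and 3 (0.27) were also above that range. Each deviation is from the mean of all DMSO samples, so a strong trend in 1 library shifts the others the opposite way. Values without replicates 1 and 4, the 2 with the strongest trends, are given where they change a call.

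Promoter sequences of the genes that the results turn on are shown first, because several genes of the pathway are themselves known NF-kB targets. RefSeq (GRCh38.p14) listed windows for 8 of the 10 genes, 13 in all. RELB and NFKBIE are named only. The letters GGGNNTTTCC were searched on both strands in the 250 bases before each start, and 7 of the 8 genes held at least 1 match, in 8 of 13 windows, against 1.73% of 35116 promoter windows of all genes. A looser pattern, the NF-kB consensus, overlaps with these letters and was found in 7 of the 8 genes and in 5.21% of all windows. A match describes letters only and is no evidence of binding in these cells. In the stretches below the matches are in capitals, on the strand of the gene, cut where the first annotated transcript starts.
NFKBIA: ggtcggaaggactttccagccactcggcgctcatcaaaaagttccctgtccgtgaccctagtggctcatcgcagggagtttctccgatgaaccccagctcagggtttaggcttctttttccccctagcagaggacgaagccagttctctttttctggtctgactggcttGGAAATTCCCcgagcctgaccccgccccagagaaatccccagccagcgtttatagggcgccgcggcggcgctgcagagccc
TNFAIP3: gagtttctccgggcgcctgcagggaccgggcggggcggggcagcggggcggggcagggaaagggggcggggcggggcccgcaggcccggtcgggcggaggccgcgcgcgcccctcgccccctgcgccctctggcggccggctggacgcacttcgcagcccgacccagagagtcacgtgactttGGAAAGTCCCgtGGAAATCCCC
BIRC3: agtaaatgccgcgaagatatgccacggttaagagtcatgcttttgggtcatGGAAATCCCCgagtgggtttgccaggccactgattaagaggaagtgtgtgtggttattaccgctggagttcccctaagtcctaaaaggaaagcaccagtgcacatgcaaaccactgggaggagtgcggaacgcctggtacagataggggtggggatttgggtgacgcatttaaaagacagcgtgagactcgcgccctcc
NFKB1: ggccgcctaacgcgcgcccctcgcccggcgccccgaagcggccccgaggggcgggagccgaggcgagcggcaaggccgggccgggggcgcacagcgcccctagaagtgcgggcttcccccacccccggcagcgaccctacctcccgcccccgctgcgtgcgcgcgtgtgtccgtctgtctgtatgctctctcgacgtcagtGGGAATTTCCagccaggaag
RELA: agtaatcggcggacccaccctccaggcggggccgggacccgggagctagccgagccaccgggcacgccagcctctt

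The NFKBIA stretch (chr14:35404750-35404999, minus strand) held 1 match, which ended 72 bases before the start. The TNFAIP3 stretch (chr6:137867009-137867213, plus strand) held 2 matches with only 2 bases between them. The BIRC3 match (chr11:102317234-102317483, plus strand) lay farther out, 199 to 190 bases before the start, and the NFKB1 match (chr4:102501109-102501329, plus strand) lay 49 to 40 bases before the RefSeq start, which is 29 bases past the end of the printed stretch. The RELA stretch (chr11:65663091-65663166, minus strand, 76 bases) is shown as the contrast, since neither RELA window held a match. The sites of the other genes follow with 5 bases on each side, all on the plus strand, which is the strand of these genes.
NFKB2, chr10:102394495-102394514: gagaaGGGGCTTTCCcggcc
NFKB2, chr10:102395679-102395698: ttttcGGGACTTTCCtaagc
REL, chr2:60881523-60881542: ccgcgGGAAATTCCCctccc
NFKBIB, chr19:38899936-38899955: tggtgGGGAATTTCCcgcag

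Across genes, levels were compared per transcript length in TPM, which scales reads by transcript length and by the library. RELA, the p65 subunit with the main transactivating domain, was the most abundant of the 10 genes in every group, at 97.4 ± 3.96 TPM in tozasertib, 91.2 ± 4.80 TPM in etoposide and 79.2 ± 7.26 TPM in DMSO cells (SD, n = 3, 4 and 4). NFKBIA came next in every group, at 77.8 ± 3.08 TPM in tozasertib, 45.9 ± 3.91 TPM in etoposide and 44.5 ± 5.68 TPM in DMSO cells. REL, which encodes c-Rel, was lowest in every group, at 2.47 ± 0.38 TPM in tozasertib, 2.05 ± 0.14 TPM in etoposide and 1.71 ± 1.07 TPM in DMSO cells. Between them stood NFKB2, NFKB1, NFKBIB and RELB, at 11.3 to 34.9 TPM on average, and then BIRC3, NFKBIE and TNFAIP3, at 2.29 to 9.53 TPM. Neighbours in the order whose sample ranges overlapped were NFKB1 and NFKBIB in tozasertib, TNFAIP3 and REL in etoposide, NFKB1 and NFKB2 as well as TNFAIP3 and REL in DMSO, and BIRC3 and NFKBIE in all 3 groups.

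**Figure D1:**
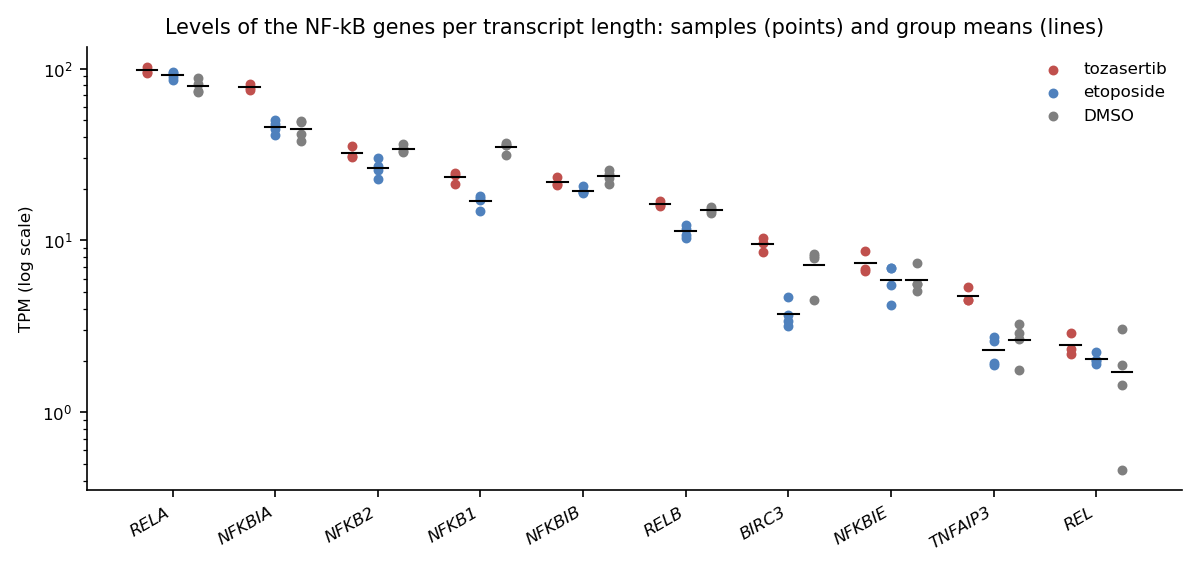
Level of each NF-kB gene in TPM (log axis) in tozasertib, etoposide and DMSO samples, where points are samples and lines group means. RELA and NFKBIA lead in all groups, NFKBIA is set apart in tozasertib (75.1 to 81.2 TPM), and the DMSO samples of REL spread from 0.46 to 3.05 TPM.

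The first question was how tozasertib and etoposide each changed these genes relative to DMSO. In tozasertib cells, 3 of the 10 genes were higher than in DMSO (NFKBIA, TNFAIP3 and BIRC3) and 2 were lower (NFKB1 and NFKB2), with edgeR's quasi-likelihood test and an adjusted p under 0.05, where 29.9% of all tested genes were called higher, 29.4% lower and 59.3% in either direction. In etoposide cells, 6 of the 10 were lower than in DMSO (NFKB1, NFKB2, RELB, NFKBIB, TNFAIP3 and BIRC3), where 30.7% of all tested genes were called lower. None of the 10 was higher in etoposide (0 with edgeR at an unadjusted p under 0.05 as well, and 0 with DESeq2), against 27.7% of all tested genes, and 58.3% were called in either direction. The median log2 fold change of the 10 genes was 0.046 for tozasertib and -0.34 for etoposide, beside 0.023 and -0.013 over all tested genes. Both comparisons use the same 4 DMSO samples.

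The second question was how the tozasertib state differed from the etoposide state. Here 5 of the 10 genes were higher in tozasertib (NFKB1, RELB, NFKBIA, TNFAIP3 and BIRC3), while 5.67% of all tested genes were called higher. None was lower (0 with edgeR also at an unadjusted p under 0.05, and 0 with DESeq2), while 5.45% of all tested genes were called lower and 11.1% in either direction. The log2 fold changes of the 10 genes ran between 0.019 and 1.19, with a median of 0.28 beside 0.0084 over all tested genes.

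**Figure D2:**
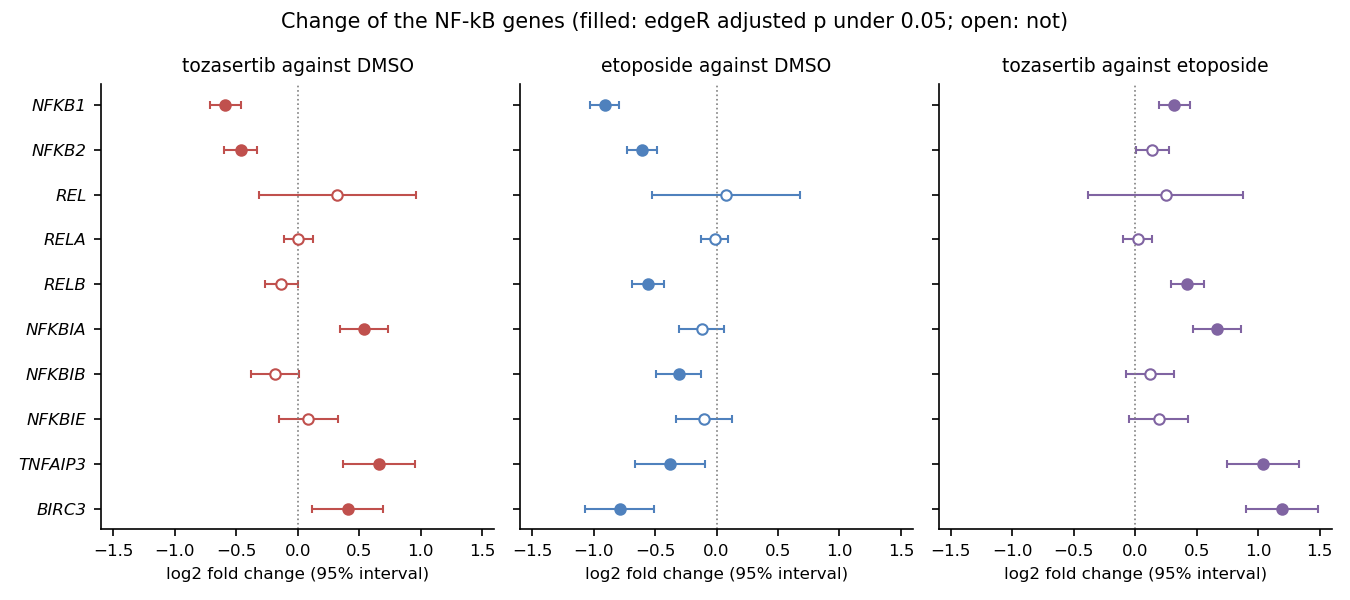
Log2 fold change of each NF-kB gene with its approximate 95% interval (a normal approximation from the SE) in the 3 comparisons, where filled points passed an edgeR adjusted p of 0.05. NFKB1 and NFKB2 lie below 0 against DMSO with both drugs, whereas NFKBIA, TNFAIP3 and BIRC3 lie above 0 in tozasertib against DMSO and against etoposide.

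Among the subunits, NFKB1 encodes the p105 precursor, which is cut to p50 and as p105 also acts like an IkB. NFKB1 had 45.9, 42.6 and 45.1 CPM in tozasertib samples, 35.0, 35.6, 34.7 and 37.9 CPM in etoposide samples and 62.1, 67.0, 67.6 and 72.0 CPM in DMSO samples. No 2 of the 3 groups overlapped, with etoposide lowest and DMSO highest. The log2 fold change was -0.59 ± 0.064 (SE, as for all log2 values below) in tozasertib against DMSO (edgeR adjusted p = 4.19e-06) and -0.91 ± 0.060 in etoposide against DMSO (adjusted p = 2.92e-08). Set against etoposide, NFKB1 was 1.25-fold higher in tozasertib (log2 0.32 ± 0.064, adjusted p = 0.00599).

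NFKB2 encodes p100, the precursor of p52 and the inhibitor that the noncanonical pathway removes. It had 50.8, 49.4 and 50.7 CPM in tozasertib samples, 47.5, 47.2, 45.6 and 42.4 CPM in etoposide samples and 77.2, 67.6, 65.9 and 67.3 CPM in DMSO samples. All drug samples were below all DMSO samples, and DMSO replicate 1 stood apart at the top. The log2 fold change was -0.47 ± 0.068 in tozasertib against DMSO (edgeR adjusted p = 6.19e-05) and -0.60 ± 0.063 in etoposide against DMSO (adjusted p = 2.46e-06). Tozasertib samples were also above all etoposide samples, but that difference did not pass the test (log2 0.14, 95% interval 0.0069 to 0.27, edgeR adjusted p = 0.228), other than without DMSO replicates 1 and 4 (adjusted p = 0.0467). In TPM the NFKB2 ranges of tozasertib (30.7 to 35.4) and DMSO (32.6 to 36.4) overlapped, and the log2 ratio of the group means was -0.079. Length-scaled counts are TPM turned back into counts at 1 length per gene, then scaled between libraries as the CPM were. With them NFKB2 was still lower in tozasertib than in DMSO (log2 -0.33, edgeR adjusted p = 0.0163).

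RELB, the partner of p52 in the noncanonical dimer, separated the drugs. Its level was 22.6, 23.7 and 23.8 CPM in tozasertib samples, 17.4, 18.3, 16.8 and 17.1 CPM in etoposide samples and 27.9, 26.1, 24.3 and 24.3 CPM in DMSO samples. The 3 ranges did not overlap, with tozasertib close below DMSO and etoposide well below both. RELB fell in etoposide against DMSO (log2 -0.56 ± 0.065, edgeR adjusted p = 7.11e-06) and was 1.34-fold higher in tozasertib than in etoposide (log2 0.42 ± 0.069, adjusted p = 0.00149). Against DMSO the tozasertib value did not pass (log2 -0.13, 95% interval -0.27 to 0.0014, adjusted p = 0.112), and in TPM the tozasertib range (15.9 to 16.9) lay above that of DMSO (14.5 to 15.7). With length-scaled counts the RELB difference was again below 0 and did not pass (log2 -0.15, edgeR adjusted p = 0.238).

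RELA had 137, 138 and 140 CPM in tozasertib samples, 134, 131, 148 and 134 CPM in etoposide samples and 147, 133, 140 and 131 CPM in DMSO samples. The 3 groups overlapped fully. The log2 fold change was 0.0054 in tozasertib against DMSO (95% interval -0.11 to 0.12), -0.013 in etoposide against DMSO (-0.12 to 0.095) and 0.019 in tozasertib against etoposide (-0.099 to 0.14), and edgeR's adjusted p was 0.853 or more in all of them. On the TPM scale RELA ran from 94.3 to 102 in tozasertib and from 72.6 to 88.3 in DMSO samples. The ranges of these groups thus overlapped in CPM and not in TPM. With length-scaled counts, the log2 fold change in tozasertib against DMSO was 0.050 (edgeR adjusted p = 0.569). The CPM and length-scaled counts carried edgeR's scaling between libraries and the TPM did not. The part of this in the gap in TPM was not tested. The sign of these small RELA differences turned under other scalings and with single libraries left out. RELA made up 56.3% to 57.5% of the summed TPM of the 5 subunits in tozasertib samples, 60.2% to 63.6% in etoposide samples and 45.4% to 50.1% in DMSO samples.

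REL, best known in lymphocytes, had 15.4, 11.5 and 11.4 CPM in tozasertib samples, 10.2, 10.5, 11.4 and 11.1 CPM in etoposide samples and 3.62, 9.08, 11.3 and 17.1 CPM in DMSO samples. The drug samples lay inside the DMSO range, and no comparison of REL passed the test. Its DMSO values had a coefficient of variation of 54.2%, on 105 to 507 reads, with replicate 1 lowest and replicate 4 highest. REL also had the longest mean effective length of the 10 genes, 8334 bases. Replicates 1 and 4 are the 2 DMSO libraries whose deviations followed length most strongly, but the part of length in the REL values was not tested. Without DMSO replicate 1 the log2 fold change of REL in etoposide against DMSO turned to -0.21 (edgeR adjusted p = 0.325), and that in tozasertib against DMSO was 0.039 (adjusted p = 0.868). Without DMSO replicate 4, REL was at 0.43 in etoposide and 0.69 (adjusted p = 0.0507) in tozasertib against DMSO. With both libraries left out, the log2 fold change of REL was 0.34 in tozasertib (edgeR adjusted p = 0.0619) and 0.080 in etoposide (adjusted p = 0.645) against DMSO.

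**Figure D3:**
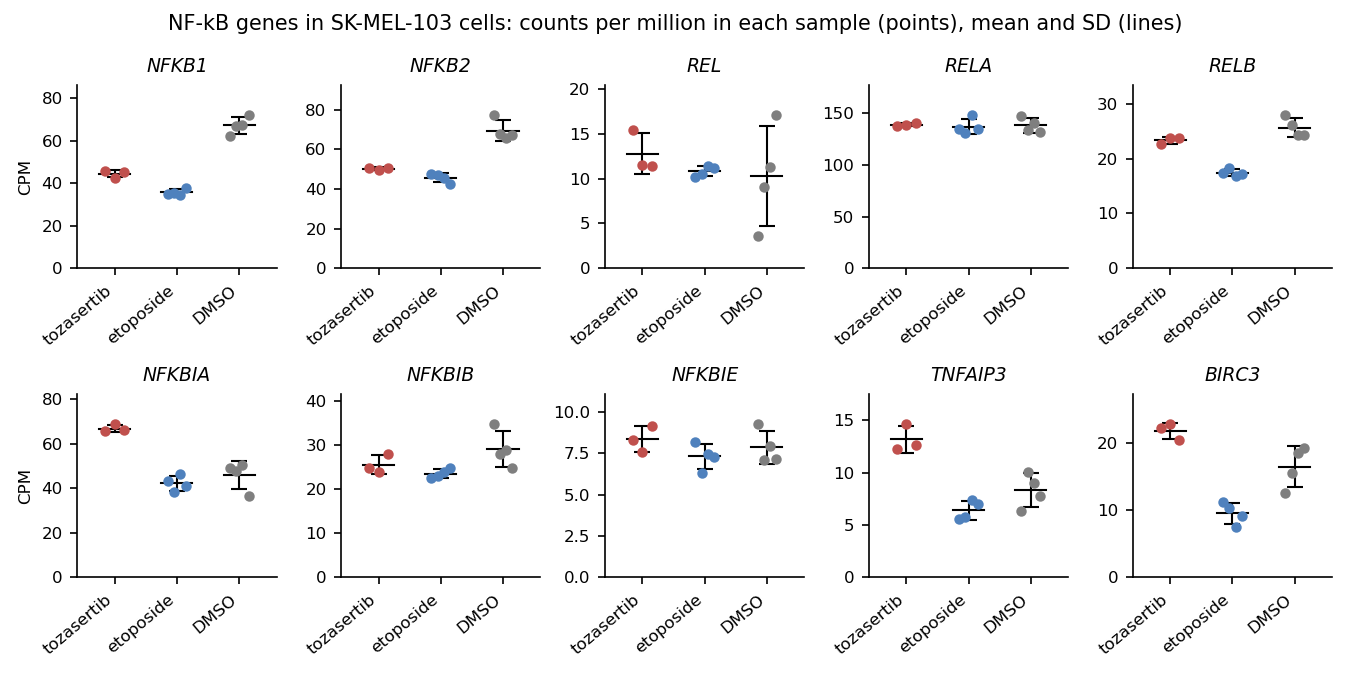
CPM of the 10 NF-kB genes in each tozasertib, etoposide and DMSO sample (points), with group mean and SD as black lines and each axis starting at 0. NFKB1 and NFKB2 are lower in both drugs than in DMSO, NFKBIA and TNFAIP3 are higher in tozasertib than in either other group, and REL spreads from 3.62 to 17.1 CPM within DMSO.

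Among the IkB inhibitors, NFKBIA, which encodes IkB-alpha, the inhibitor resynthesised fastest after NF-kB activation, was higher in tozasertib than in both other groups. It had 65.7, 68.9 and 66.1 CPM in tozasertib samples, 43.1, 38.3, 46.5 and 41.1 CPM in etoposide samples and 49.0, 47.9, 50.5 and 36.6 CPM in DMSO samples. All tozasertib samples were above all others, while etoposide and DMSO overlapped, with DMSO replicate 4 lowest of the 11 samples. NFKBIA rose 1.45-fold in tozasertib against DMSO (log2 0.54 ± 0.099, edgeR adjusted p = 0.000411) and was 1.58-fold higher than in etoposide (log2 0.66 ± 0.099, adjusted p = 0.000781). In etoposide against DMSO the difference did not pass (log2 -0.12, 95% interval -0.30 to 0.061, adjusted p = 0.281), but without DMSO replicate 4 it did, at -0.22 (adjusted p = 0.0127).

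Set against RELA, the transactivating subunit it binds, NFKBIA had a TPM ratio of 0.756, 0.845 and 0.797 in tozasertib samples, 0.500, 0.482, 0.530 and 0.500 in etoposide samples and 0.571, 0.655, 0.609 and 0.430 in DMSO samples. The ratio was highest in the 3 tozasertib samples, and etoposide and DMSO samples overlapped. It is given as a description, without a test.

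NFKBIB, which encodes IkB-beta, had 24.8, 24.1 and 28.1 CPM in tozasertib samples, 22.6, 23.1, 23.9 and 24.8 CPM in etoposide samples and 34.8, 28.1, 29.0 and 24.9 CPM in DMSO samples. Its highest etoposide and lowest DMSO values almost touched. NFKBIB fell in etoposide against DMSO (log2 -0.31 ± 0.093, edgeR adjusted p = 0.0124), and its value in tozasertib against DMSO did not pass (log2 -0.19, 95% interval -0.38 to 0.010, adjusted p = 0.127), nor did that in tozasertib against etoposide (log2 0.12, adjusted p = 0.506). The tozasertib value against DMSO passed without DMSO replicate 4 (log2 -0.25, adjusted p = 0.0309). NFKBIE, which encodes IkB-epsilon, was the least abundant inhibitor, at 8.30, 7.55 and 9.14 CPM in tozasertib samples, 8.18, 6.30, 7.45 and 7.25 CPM in etoposide samples and 9.24, 7.06, 7.93 and 7.16 CPM in DMSO samples. The groups of NFKBIE overlapped and no comparison passed, with adjusted p between 0.379 and 0.560.

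The feedback genes showed the widest gap between the drugs. TNFAIP3 encodes A20, a ubiquitin-editing enzyme that shuts off signalling upstream of IKK. TNFAIP3 had 12.3, 14.6 and 12.7 CPM in tozasertib samples, 5.54, 5.79, 7.37 and 7.005 CPM in etoposide samples and 6.38, 10.1, 9.05 and 7.80 CPM in DMSO samples, on 179 to 720 reads a sample. Every tozasertib sample was above every other sample, and etoposide and DMSO overlapped. TNFAIP3 was 2.05-fold higher in tozasertib than in etoposide (log2 1.04 ± 0.15, edgeR adjusted p = 0.000583) and 1.58-fold higher than in DMSO (log2 0.66 ± 0.15, adjusted p = 0.00187).

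In etoposide against DMSO, TNFAIP3 was lower at the threshold (log2 -0.38 ± 0.14, edgeR adjusted p = 0.0376). This call was lost in 9 of 19 other settings, with adjusted p over the 19 between 0.00251 and 0.124. Among them were the fits without etoposide replicate 1 (adjusted p = 0.105), etoposide replicate 2 (0.0952), DMSO replicate 2 (0.124) or DMSO replicate 3 (0.0921), and DESeq2 (0.056).

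BIRC3 encodes cIAP2, a ubiquitin ligase at the TNF receptor that protects from cell death. BIRC3 had 22.2, 22.7 and 20.4 CPM in tozasertib samples, 11.2, 10.3, 7.45 and 9.10 CPM in etoposide samples and 12.5, 15.5, 18.4 and 19.2 CPM in DMSO samples. The 3 ranges did not overlap, with etoposide lowest, DMSO between and tozasertib highest. BIRC3 was 2.29-fold higher in tozasertib than in etoposide, the largest difference of the 10 genes (log2 1.19 ± 0.15, edgeR adjusted p = 0.000191). It fell in etoposide against DMSO (log2 -0.79 ± 0.14, adjusted p = 0.000356), although the TPM ranges of etoposide (3.18 to 4.66) and DMSO (4.47 to 8.34) overlapped.

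BIRC3 rose in tozasertib against DMSO (log2 0.41 ± 0.15, edgeR adjusted p = 0.0300), a call that was lost in 6 of 19 other settings (adjusted p between 0.00297 and 0.373). It did not pass without tozasertib replicate 1 (adjusted p = 0.0811), tozasertib replicate 2 (0.0882), DMSO replicate 1 (0.0551) or DMSO replicate 2 (0.0696). With length-scaled counts in place of summed counts the difference of BIRC3 was smaller (log2 0.17, adjusted p = 0.373), and the replicate block left it at 0.39 (adjusted p = 0.0854).

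Counted by overlap of the samples, the CPM ranges of tozasertib and DMSO were apart for 6 of the 10 genes (59.8% of all tested genes), those of etoposide and DMSO for 5 (51.2%), and those of tozasertib and etoposide for 6 (31.0%). The 6 genes whose tozasertib and etoposide ranges were apart were NFKB1, NFKB2, RELB, NFKBIA, TNFAIP3 and BIRC3.

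The reads of each gene came from several annotated transcripts, whose shares are estimates. NFKBIA-201 carried 84.7% of NFKBIA's TPM in tozasertib, 90.5% in etoposide and 89.5% in DMSO cells on average, and RELA-202 carried 70.5% of RELA's in tozasertib, 72.3% in etoposide and 76.2% in DMSO cells. For NFKBIB the shares differed more. NFKBIB-201, its canonical transcript, carried 30.3% to 38.6% in tozasertib samples, 29.7% to 35.5% in etoposide samples and 46.0% to 57.4% in DMSO samples, with no overlap between either drug and DMSO, and NFKBIB-204, also protein-coding, carried 32.4% to 39.6% in tozasertib samples, 30.7% to 44.2% in etoposide samples and 16.3% to 25.2% in DMSO samples. These shares are given without a test, as is that of NFKB1-222, an NFKB1 transcript with a retained intron, which carried 16.2% to 22.2% in tozasertib samples, up to 21.2% in etoposide samples and 21.6% to 47.4% in DMSO samples. The NFKB1 levels above sum all its transcripts, NFKB1-222 included, and its part in the NFKB1 calls was not tested. Transcript shares of TNFAIP3 and REL were unstable, with the leading transcript at 0% in some samples.

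The rest of the pathway was counted from lists of known components. Over all tested genes, 29.9% were called higher and 29.4% lower in tozasertib against DMSO, 27.7% and 30.7% in etoposide against DMSO, and 5.67% and 5.45% in tozasertib against etoposide, and the counts of each list stand beside these shares. Of 11 IKK complex genes and kinases, all tested, 5 were higher and 1 lower in tozasertib against DMSO, 3 were higher and 2 lower in etoposide against DMSO, and 1, IKBKE, was higher in tozasertib than in etoposide (log2 0.43, edgeR adjusted p = 0.00491). IKBKB, the kinase that marks IkB-alpha, averaged 76.6 CPM in tozasertib, 73.0 CPM in etoposide and 58.1 CPM in DMSO cells, and was higher in tozasertib (log2 0.40, adjusted p = 0.000374) and etoposide (log2 0.33, adjusted p = 0.000948) than in DMSO. TBK1, an IKK-related kinase, was higher in both drugs as well (log2 0.47 in tozasertib and 0.28 in etoposide against DMSO). TAB1 and TAB2, partners of the kinase TAK1, went opposite ways: against DMSO, TAB2 rose (log2 0.37 in tozasertib and 0.29 in etoposide) and TAB1 fell (log2 -0.18 in tozasertib and -0.30 in etoposide).

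Of 14 adaptors and ubiquitin ligases, 6 were higher and 4 lower in tozasertib against DMSO, 5 were higher and 7 lower in etoposide against DMSO, and 4 were higher in tozasertib than in etoposide. TRAF1, an adaptor that is itself an NF-kB target, averaged 30.2 CPM in tozasertib, 18.0 CPM in etoposide and 44.7 CPM in DMSO cells. It fell in tozasertib (log2 -0.57, edgeR adjusted p = 2.97e-05) and in etoposide (log2 -1.31, adjusted p = 5.87e-09) against DMSO, and was higher in tozasertib than in etoposide (log2 0.74, adjusted p = 3.43e-05), the same order of groups as NFKB1. MYD88, the adaptor of Toll-like and IL-1 receptors, averaged 130.1 CPM in tozasertib, 86.8 CPM in etoposide and 72.4 CPM in DMSO cells, and all 3 differences passed. TRAF2 fell against DMSO (log2 -0.62 in tozasertib and -0.83 in etoposide) and RBCK1, part of the linear ubiquitin ligase, rose (log2 0.80 in tozasertib and 0.67 in etoposide).

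Of 12 other inhibitors, 5 were higher and 5 lower in tozasertib against DMSO, 2 were higher and 2 lower in etoposide against DMSO, and 2 were higher in tozasertib than in etoposide. CYLD, a deubiquitinase that restrains IKK activation, rose in both drugs against DMSO (log2 0.85 in tozasertib and 0.78 in etoposide), and OTULIN, the enzyme that cleaves linear ubiquitin chains, fell (log2 -0.45 in tozasertib and -0.49 in etoposide). ZC3H12A, an RNase that degrades cytokine messages, averaged 17.7 CPM in tozasertib, 12.7 CPM in etoposide and 12.3 CPM in DMSO cells. Like NFKBIA, ZC3H12A was higher in tozasertib than in DMSO (log2 0.52, edgeR adjusted p = 0.000619) and than in etoposide (log2 0.48, adjusted p = 0.00741), while its etoposide value against DMSO did not pass (log2 0.042, adjusted p = 0.731). TAX1BP1, an A20 partner, rose against DMSO by 0.30 on the log2 scale in tozasertib and 0.27 in etoposide.

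Of 16 receptors and ligands 10 were tested, with 6 higher and 1 lower in tozasertib against DMSO, 4 higher and 1 lower in etoposide against DMSO, and 2 higher in tozasertib than in etoposide. TNF itself was among the 6 with too few reads. IL1B averaged 459 CPM in tozasertib, 403 CPM in etoposide and 127 CPM in DMSO cells and rose in both drugs (log2 1.85 in tozasertib and 1.67 in etoposide against DMSO). IL1A fell in both (log2 -0.93 in tozasertib and -1.43 in etoposide). TLR3, a receptor of double-stranded RNA, averaged 35.9 CPM in tozasertib, 16.2 CPM in etoposide and 8.32 CPM in DMSO cells, and was higher in tozasertib than in etoposide (log2 1.15, edgeR adjusted p = 1.18e-06). IL1RAP, the co-receptor of IL-1, rose in both drugs against DMSO (log2 0.82 in tozasertib and 0.97 in etoposide).

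Of 24 NF-kB target genes 22 were tested, with 11 higher and 7 lower in tozasertib against DMSO, 8 higher and 11 lower in etoposide against DMSO, and 7 higher and 1 lower in tozasertib than in etoposide. Targets were thus called in both directions, as were all tested genes (29.9% higher and 29.4% lower in tozasertib against DMSO, 27.7% higher and 30.7% lower in etoposide against DMSO, and 5.67% higher and 5.45% lower between the drugs). CCL2, a monocyte chemokine, rose in both drugs (log2 2.43 in tozasertib and 2.77 in etoposide against DMSO), whereas CXCL1, a neutrophil chemokine, fell in both (log2 -0.99 in tozasertib and -2.06 in etoposide) and was higher in tozasertib than in etoposide (log2 1.07, edgeR adjusted p = 0.000300). IL6 was low, with means of 8.58 CPM in tozasertib, 4.60 CPM in etoposide and 1.21 CPM in DMSO cells, and was higher in tozasertib than in etoposide (log2 0.90, adjusted p = 0.00531). SDC4, a cell-surface proteoglycan, rose in both drugs (log2 0.64 in tozasertib and 0.77 in etoposide against DMSO). The 1 target lower in tozasertib than in etoposide, TNFAIP2, was looked up after its value was seen (log2 -0.41, adjusted p = 0.00298).

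The lists are set side by side by their median log2 fold change. In tozasertib against DMSO the median was 0.15 for the IKK genes, -0.085 for the adaptors, -0.072 for the other inhibitors, 0.38 for the receptors and ligands and 0.20 for the targets, beside 0.023 over all tested genes. In etoposide against DMSO it was 0.075 for the IKK genes, -0.15 for the adaptors, -0.00043 for the other inhibitors, 0.23 for the receptors and ligands and -0.14 for the targets, beside -0.013. In tozasertib against etoposide it was 0.10 for the IKK genes, 0.17 for the adaptors, 0.035 for the other inhibitors, 0.13 for the receptors and ligands and 0.35 for the targets, beside 0.0084, and 1.12 for the feedback genes TNFAIP3 and BIRC3.

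**Figure D4:**
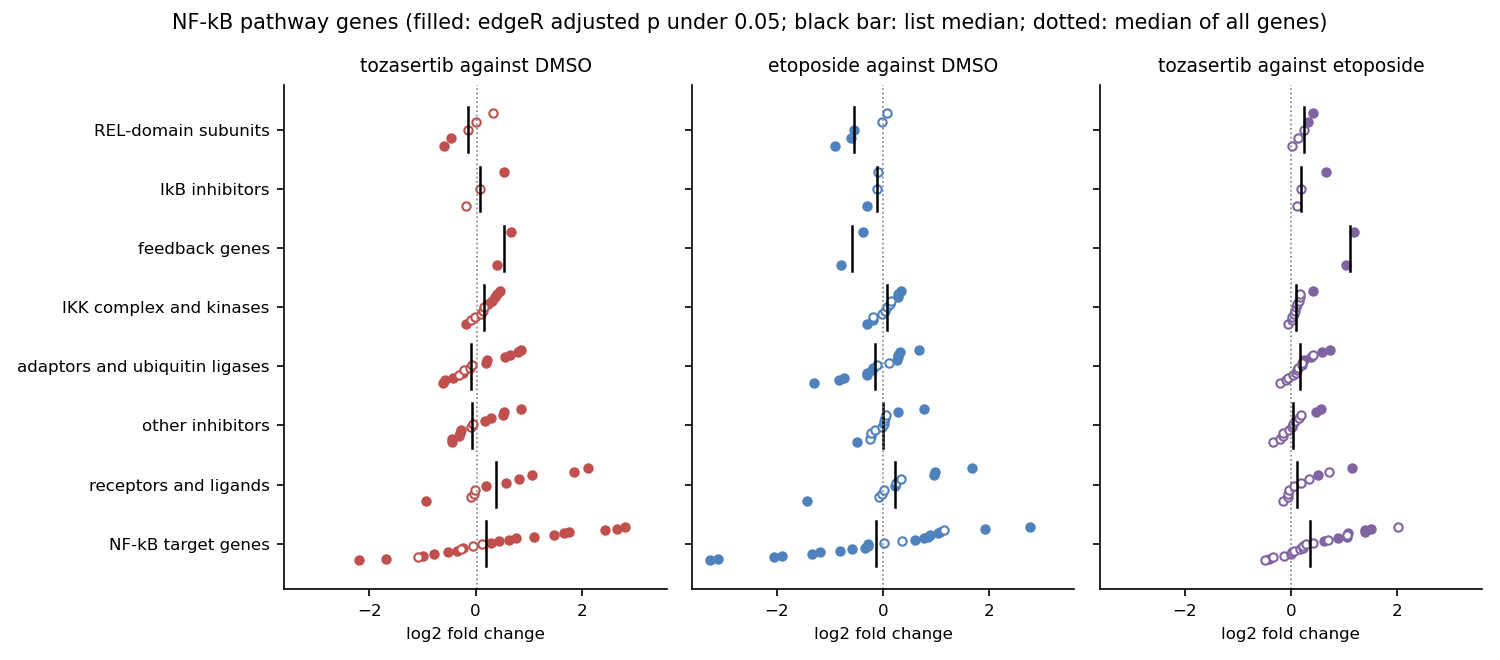
Log2 fold change of every tested gene of the 8 lists of pathway genes in the 3 comparisons, filled where the edgeR adjusted p was under 0.05, with the list median (black bar) and the median of all tested genes (dotted line). Against DMSO the lists spread to both sides, while in tozasertib against etoposide the feedback genes have a median of 1.12 and the targets of 0.35.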

How the data were processed

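Gene levels were measured by RNA sequencing of 11 SK-MEL-103 samples. Per the labels the authors trimmed reads with cutadapt 4.7 and quantified transcripts with Salmon 1.9.0 (GRCh38); R 4.4.2 and DESeq2 1.40.2 are also named. The deposited tables hold, per transcript, estimated counts, TPM and an effective length, all made by the authors. Estimated counts were summed to genes with GENCODE 44 (99.8% of transcripts matched; unmatched transcripts held 0.136% to 0.163% of reads) and rounded. edgeR 4.0.16 (R 4.3.3; TMM, filterByExpr, quasi-likelihood test, all 11 samples in 1 fit, Benjamini-Hochberg adjustment over 17039 genes) gave log2 fold changes and TMM-scaled CPM. Depths were 27882689 to 56534763 reads, and counting intervals were not computed. Alternatives covered scaling, filter, length-scaled counts, DESeq2 1.42.0, 2 groups only, a replicate block, and each library left out. Deviations of same-numbered tozasertib and etoposide samples correlated (r = 0.423, 0.139 and 0.299). So did those of etoposide replicate 3 and tozasertib replicate 4 (r = 0.29), so it is not settled that the numbers pair samples. The block changed no NF-kB gene call between these groups. For same-numbered DMSO and drug samples r ran from -0.132 to 0.165. All 10 genes are named, with up to 4 genes a pathway list by smallest adjusted p. The genes and lists were chosen with earlier results of these data known. Tozasertib replicate 3 was not analysed here.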

Additional observations from a re-analysis of the deposited data

Results flagged for a closer look

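Among the etoposide and DMSO groups, NFKB2 in the DMSO samples was the 1 case in which a sample stood apart from its group. The tozasertib groups, with 3 samples each, were not checked. DMSO replicate 1 had 77.2 CPM, against 67.6, 65.9 and 67.3 CPM in the others, and its gap to the nearest sample was 0.846 of the whole range of the group, above Dixon's 95% critical value for 4 samples. The rule was applied to 20 groups of 4 samples, and chance flags about 1 in 20. The same library had the strongest relation of deviation to effective length (Spearman's rho -0.53), and the part of this in its NFKB2 value was not tested. Without DMSO replicates 1 and 4 the log2 fold change of NFKB2 was -0.40 in tozasertib (edgeR adjusted p = 8.03e-05) and -0.55 in etoposide (adjusted p = 3.69e-06) against DMSO.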

How the results depend on the processing

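The counts of NF-kB genes called stayed within 1.5 times of those reported in all 114 recomputed counts. With counts this small that limit is loose and does not follow which genes were called. With length-scaled counts, 2 genes were higher and 3 lower in tozasertib against DMSO, in place of 3 and 2. Gene by gene, 14 of the 16 calls of the 10 genes in the 3 comparisons were past the threshold in all 19 other settings. Over the 19 settings, the calls that moved were TNFAIP3 in etoposide against DMSO (lost with DESeq2 size factors in edgeR at adjusted p = 0.052, library size alone 0.0763, length-scaled counts 0.0862 and 2 groups only 0.0843, beside those given above), BIRC3 in tozasertib against DMSO, NFKBIA in etoposide against DMSO (past the threshold without DMSO replicate 4, and also without replicates 1 and 4, a setting chosen after seeing the data, adjusted p = 0.015), NFKBIB in tozasertib against DMSO (past it with length-scaled counts, log2 -0.38, adjusted p = 0.0227) and NFKB2 in tozasertib against etoposide. The replicate block moved the call of BIRC3 in tozasertib against DMSO (log2 0.39, adjusted p = 0.0854) and no other call of the 10 genes. It gave 834 genes higher and 785 lower in tozasertib against etoposide. Signs turned for RELA and REL, whose values lay near 0. RELA in etoposide against DMSO was 0.014 with DESeq2 size factors and with DESeq2, 0.040 with library size alone, 0.037 with length-scaled counts, 0.024 with 2 groups only, and -0.055 to 0.040 over all settings, with 0.016 without DMSO replicate 1 and 0.0058 without etoposide replicate 2. RELA in tozasertib against DMSO was -0.0045 with no filter, -0.016 without DMSO replicate 2, -0.0098 without DMSO replicate 4 and -0.0074 without tozasertib replicate 4. RELA in tozasertib against etoposide was -0.0091 with DESeq2 size factors, -0.014 with DESeq2 and -0.0034 without etoposide replicate 2. REL in etoposide against DMSO was -0.21 without DMSO replicate 1 and 0.43 without DMSO replicate 4. Over the left-out libraries RELA reached 0.033 in tozasertib against DMSO (without DMSO replicate 1) and 0.057 in tozasertib against etoposide (without etoposide replicate 3). The cause of these turns was not tested. Of all genes, 966 were called higher and 929 lower in tozasertib against etoposide. The counts were 600 and 519 with length-scaled counts, 1488 lower with DESeq2, 1785 and 1767 with 2 groups only, and over the left-out libraries 565 to 1545 higher and 471 to 1854 lower, lowest without tozasertib replicate 1 and highest without DMSO replicate 1. For these counts the cause was not tested. With libraries left out, mean TPM stayed within the spread (SD) between replicates in 110 recomputed values. Leaving out 1 of 3 or 4 samples cannot move a mean by more than that spread, so nothing follows from this count. In CPM in place of TPM, 9 of 20 log2 ratios of group means against DMSO moved by more than that spread and 11 did not. Those that turned sign were RELB in tozasertib (0.11 in TPM and -0.13 in CPM), RELA in etoposide (0.20 in TPM and -0.014 in CPM) and NFKBIA in etoposide (0.047 in TPM and -0.12 in CPM). The CPM were TMM-scaled and the TPM were not, and the part of this in these moves was not tested. With 3 or 4 samples a group, an interval such as that of REL (log2 -0.32 to 0.96 in tozasertib against DMSO) leaves a change of nearly 2-fold undetected.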

Other observations

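The genes whose pattern over the 11 samples was most like that of 3 NF-kB genes were found by the root-mean-square difference of log2(CPM + 1) after centring each gene on its own mean, where a smaller value is a closer likeness. For NFKB2 these were COQ8B (0.0509), MAP3K13 (0.0513) and RBM17 (0.0541), and RBM17 averaged 64.7 CPM in tozasertib, 60.7 CPM in etoposide and 90.5 CPM in DMSO cells. For BIRC3 they were ATP10A (0.175), TENT5A (0.177) and NLRC5 (0.19), and NLRC5 averaged 71.9 CPM in tozasertib, 30.3 CPM in etoposide and 43.0 CPM in DMSO cells. For NFKBIA they were PADI4 (0.0902), APOE (0.105) and DLX2 (0.117), all with means of 5.0 CPM or less, where the added 1 CPM shrinks every difference, so these likenesses say little of level. The search ran over all tested genes and is a description.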
